A study of Mus musculus with 16 samples.

Results

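The genes of the AP-1 transcription factor and of the immediate early response were followed in mouse embryonic stem (ES) cells and in the embryoid bodies (EBs) grown from them, with and without a functional Taf4a gene. The 10 members were taken by gene name, with no threshold on a measured value: Fos, Fosb, Fosl1, Fosl2, Jun, Junb and Jund, which encode the Fos and Jun subunits of AP-1, and Egr1, Atf3 and Klf6, which belong to the same early response. All 10 were found among the 27807 genes of the table. Polyadenylated RNA was sequenced in 16 libraries that fell into 8 groups of 2, a genotype at each of 4 stages, and the values below are normalised read counts, that is, the reads of a gene divided by a size factor of its library.

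The genotypes were Taf4+/+ (WT below) and Taf4-/- (titled Taf4a-/-, KO below). Taf4a encodes Taf4, which helps to hold together TFIID, the complex with which the TATA-binding protein reaches promoters, and the null allele of the study lacks part of its exons. The study used 2 independent ES cell lines per genotype, isolated from blastocysts of heterozygous crosses. ES cells of both genotypes grew with serum and LIF on feeder layers of inactivated mouse fibroblasts. EBs are floating aggregates of differentiating cells, harvested at 3 times: ahead of retinoic acid (EB4), a day into it (EB5) and near the end of the treatment (EB8), when the cells are labelled as neural precursors. No label ties a replicate number to a line, so p-values measure the spread between libraries of a group, and a difference between genotypes is also a difference between lines.

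AP-1 is a dimer of basic leucine zipper proteins. Jun proteins pair with each other or with a Fos protein, whereas Fos proteins need a Jun partner, and the dimers bind the sequence TGACTCA or, with partners of the ATF and CREB families, TGACGTCA. Immediate early genes are transcribed within minutes of a growth factor, serum or a stress such as cell dissociation, from promoters that are ready beforehand, and the handling of cells is known to induce them. In ES cells and neural precursors the same genes lie downstream of the FGF and MAP kinase pathway, which favours exit from pluripotency.

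The promoters of the members that differed between genotypes are shown first, with that of Fos for its TATA element, the site bound by the TATA-binding protein within TFIID. Promoter sequences were matched by symbol for 8 of the 10 members in RefSeq (GRCm38.p6), without Fosl1 and Egr1, and were searched on both strands over the 250 bases before the start site. Capitals mark TGACTCA, TGACGTCA, TGACATCA, the CArG box bound by serum response factor, or TATAAA, of which these 3 windows held TGACATCA and TATAAA.
Jun promoter, chr4:95052223-95052472, minus strand: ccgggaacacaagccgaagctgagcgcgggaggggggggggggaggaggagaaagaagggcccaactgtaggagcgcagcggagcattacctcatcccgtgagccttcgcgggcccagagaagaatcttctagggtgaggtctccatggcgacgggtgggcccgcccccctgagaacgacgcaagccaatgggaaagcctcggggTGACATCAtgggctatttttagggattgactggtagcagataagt
Klf6 promoter, chr13:5861239-5861488, plus strand: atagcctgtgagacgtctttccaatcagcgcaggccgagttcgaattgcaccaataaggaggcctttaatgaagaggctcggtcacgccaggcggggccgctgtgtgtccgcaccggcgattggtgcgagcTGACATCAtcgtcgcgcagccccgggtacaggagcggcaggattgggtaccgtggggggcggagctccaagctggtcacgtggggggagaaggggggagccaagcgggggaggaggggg
Fos promoter, chr12:85473640-85473889, plus strand: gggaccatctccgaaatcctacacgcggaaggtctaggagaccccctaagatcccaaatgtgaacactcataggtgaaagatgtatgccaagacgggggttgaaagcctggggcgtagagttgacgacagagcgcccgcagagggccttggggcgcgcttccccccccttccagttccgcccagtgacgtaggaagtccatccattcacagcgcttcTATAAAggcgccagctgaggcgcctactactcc
TGACATCA, the element through which Jun and ATF proteins are known to act on the Jun promoter, lay at -45 to -38 in Jun and at -119 to -112 in Klf6, and in 2.93% of 32817 mouse promoters of the same length. TATAAA lay at -33 to -28 in Fos, and in 12.4% of promoters. None of the 8 windows held TGACTCA (4.46% of promoters), TGACGTCA (1.55%) or a CArG box (1.47%). GGGCGG, the GC box, was found in 6 of the 8 windows (32.7% of promoters), and 5 times in that of Atf3. The Egr1 site GCGNGGGCG overlapped a GC box in Fosb and Fosl2 (4.7% of promoters). A match, or the lack of one, is a description of these windows only, and sequence further upstream was not searched.

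The libraries held 22442118 to 40711826 reads in genes, with all ES libraries (32631020 reads or more) above all EB libraries (27685306 or fewer), so a step from ES to EB4 cannot be told apart from a batch that sequencing may have made. Taf4a itself ran from 1590.9 to 1959.6 normalised counts in WT and from 1972.8 to 2400.0 in KO, with both KO libraries above both WT libraries at each stage. A count over the whole gene does not resolve the deleted exons, so it does not check the labels, and genotypes are given as labelled. In 2 libraries, KO EB4 replicate 2 and KO EB8 replicate 2, GC-rich genes read low: the 815 tested genes with at least 60% GC had a median deviation of -0.67 and -0.47 (log2), against -0.08 to 0.37 in the other 14. The summed level of 6 pluripotency markers at EB8 was 1324.2 and 1519.3 in the WT libraries against 23840.2 and 26764.2 in KO, and that of the 5 neural progenitor markers found was 26844.1 and 24381.5 against 4862.8 and 4830.9, so the KO libraries labelled as neural precursors held the progenitor markers at a lower level. In such bulk samples fewer cells of a type and less RNA per cell cannot be told apart. The 8 fibroblast markers, which feeders would bring, summed to 1054.9 and 2670.1 in WT ES and to 213.3 and 500.3 in KO ES, with Lum at 0.9 or below. The 7 markers tested had a median change of -1.82 (log2, KO over WT) at ES. Limma called none of these 7 between genotypes at any stage. At ES it called 0 of all 16124 genes tested, so that count says nothing particular to the markers. The part of these differences in the results that follow was not tested.

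Per kilobase of exon, Jund (1003 normalised counts per kb over the 16 libraries) and Klf6 (981.9) were the most abundant members, followed by Junb (442.2), Jun (411.3), Egr1 (229.2), Atf3 (179.5), Fosl2 (97.07), Fos (91.7), Fosb (9.501) and Fosl1 (6.959). Jund and Klf6 stood at percentiles 88.4 and 88.1 of the tested protein-coding genes, and Fosb and Fosl1 at 8.7 and 6.2. The Jun genes together outweighed the Fos genes per kb in each library, from 3.49 times in WT EB4 replicate 2 to 19.8 times in WT EB8 replicate 1. The plot of both families by library shows this balance. The 2 lowest Jun sums, 481.1 and 686.2 per kb, were those of the KO libraries with low GC-rich signal.

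**Figure D1:**
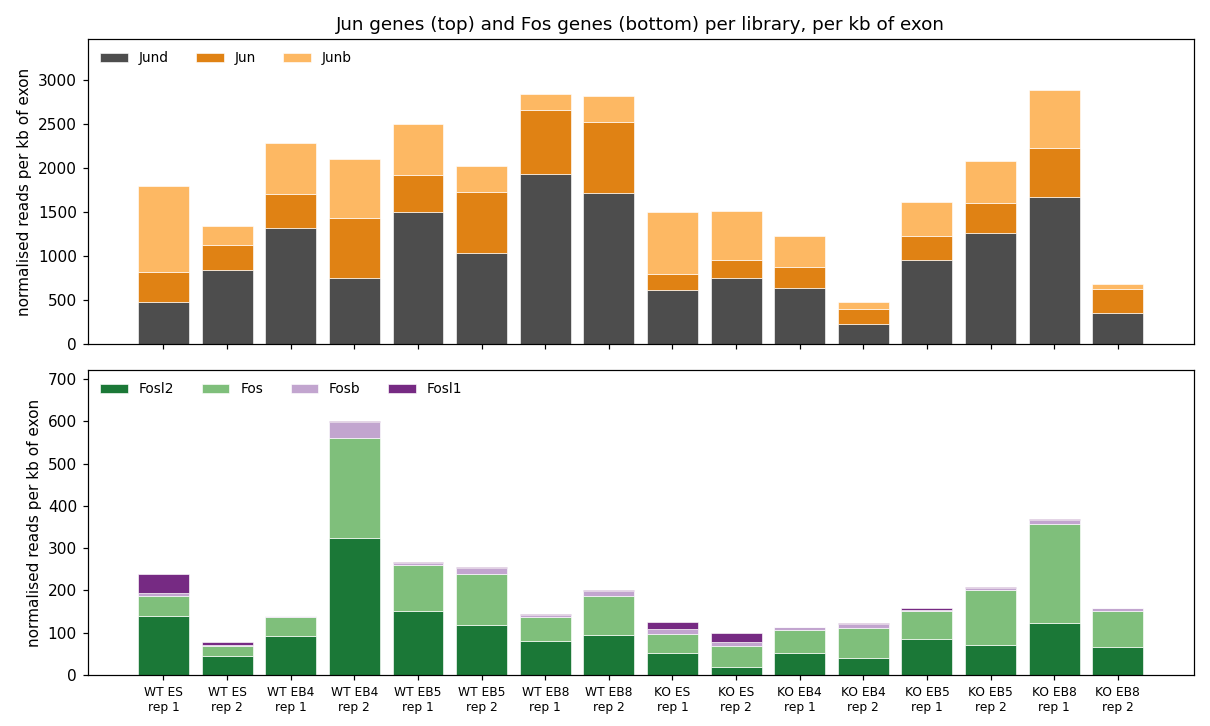
Stacked bars give the normalised reads per kb of exon of the 3 Jun genes (upper panel) and the 4 Fos genes (lower panel) in each of the 16 libraries. The Jun sum was lowest in KO EB4 replicate 2 (481.1) and KO EB8 replicate 2 (686.2), and the Fos sum was highest in WT EB4 replicate 2 (601.4).

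The comparisons of KO with WT at a stage address whether early response genes depend on Taf4 before and during differentiation. Across all 16124 genes tested, limma called 0% of genes at ES, 6.12% at EB4, 4.34% at EB5 and 22.9% at EB8 at an adjusted p below 0.05. Of the 10 members it called 0 at ES, 1 at EB4 (Jun, lower in KO, as 3.37% of all genes were), 0 at EB5 and 1 at EB8 (Klf6, higher in KO, as 10.4% were). The count of 0 at ES stood beside 1 member (Atf3), and 1846 genes in all, at an unadjusted p under 0.05, and edgeR and DESeq2 also called 0 members there. At EB5, where the unadjusted p of 1 member (Jun) was under 0.05, edgeR and DESeq2 called 0 as well. The median change over the members was -0.92 (log2) at EB4, against 0.00 over all genes tested, and it rested much on 1 library: it was -0.30 without WT EB4 replicate 2, in which 9 of 10 members were higher than in replicate 1, -1.61 without WT EB4 replicate 1 and -0.72 without KO EB4 replicate 2, a library of low GC-rich signal. At EB8 the median was 0.09, against -0.03, and ran from -0.26 without KO EB8 replicate 1 to 0.87 without KO EB8 replicate 2. The plot of changes by stage shows the spread around each.

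**Figure D2:**
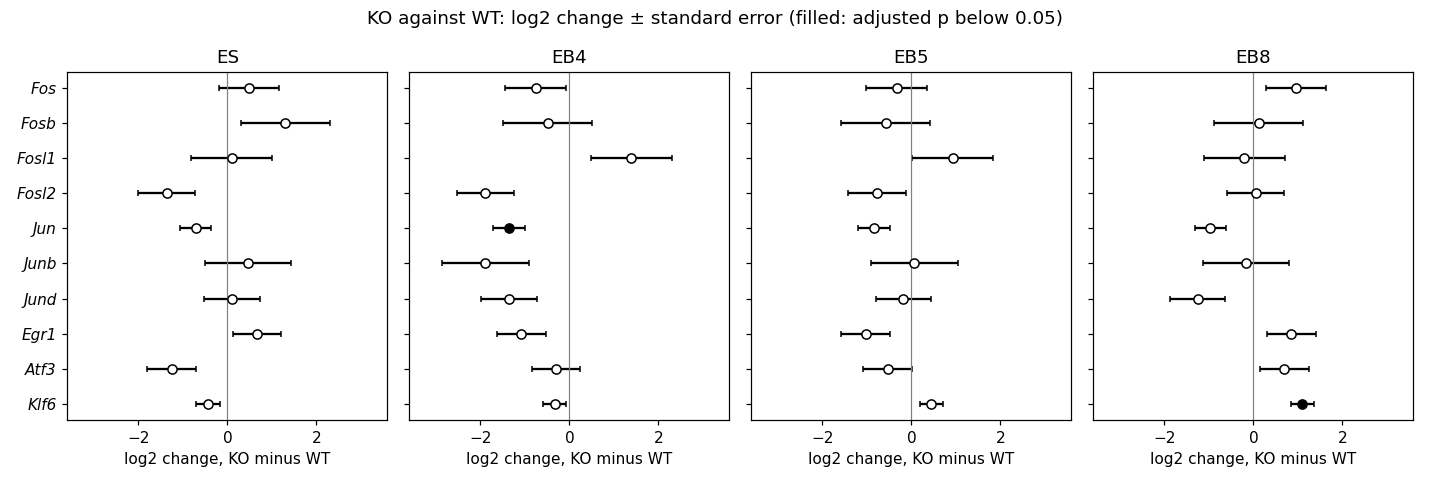
Points are log2 changes of KO over WT for each member at ES, EB4, EB5 and EB8, bars are ± 1 standard error of the limma fit with 2 libraries per group, and filled points have an adjusted p below 0.05. Jun lay at -0.72, -1.36, -0.84 and -0.97, and Klf6 moved from -0.44 at ES to 1.09 at EB8. Fosl1 had 7 reads or fewer in each EB library.

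Among the Jun genes, Jun, the strongest activator of the family, was lower in KO at EB4 and had lower values in KO throughout. Jun (ENSMUSG00000052684) is a gene of a single exon on chromosome 4 (NCBI37, 94715725 to 94718913, minus strand), and BC042782 overlaps it on the other strand. In ES libraries Jun was read at 1074.0 and 906.5 normalised counts in the WT libraries against 551.2 and 653.2 in KO. At EB4 its counts were 1234.1 and 2201.4 in the WT libraries against 764.0 and 541.1 in KO, a log2 change of -1.36 (SE 0.35, limma adjusted p = 0.0448), or a level 2.56-fold lower. Both KO libraries lay under both WT libraries at these stages. At EB5 the counts were 1365.4 and 2201.8 in the WT libraries against 870.4 and 1076.3 in KO, and at EB8 they were 2333.4 and 2562.2 in the WT libraries against 1772.5 and 878.8 in KO. The order was again complete at both stages, although the KO EB8 libraries differed between themselves by 1.01 (log2).

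Jun was thus the only member whose KO libraries all lay under the WT libraries of their stage at the 4 stages, an arrangement found for 5.17% of the genes tested. The changes at ES (-0.72), EB5 (-0.84) and EB8 (-0.97) had limma adjusted p-values of 0.471, 0.201 and 0.0677. The call at EB4 was made in 8 of 14 alternatives. It was lost with no filter on low values (limma adjusted p = 0.0712) and in a fit of the compared groups alone (0.178). In that fit limma called 0 of all 16124 genes at EB4, so this loss says nothing particular to Jun. The call was also lost without WT EB4 replicate 2, KO EB4 replicate 1 or KO EB4 replicate 2, each of which left 1 library in a group. Leaving out each library gave changes from -1.77 to -0.94. With the trend on GC content removed from each library, the changes of Jun were -1.31 at EB4 (limma adjusted p = 0.0368) and -1.01 at EB8 (0.0428), whereas without both libraries of low GC-rich signal they were -1.11 (0.259) and -0.46 (0.438).

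Within WT, Jun was highest at EB8, and the WT EB8 libraries did not overlap those of WT EB5, next in the order of groups. The mean level of Jun was 990.3 ± 118 normalised counts at ES and 2448 ± 162 at EB8 in WT (SD, n = 2), and 602.2 ± 72.1 and 1326 ± 632 in KO. The genotypes' changes from ES to EB8 differed by -0.25 (SE 0.50, limma adjusted p = 0.798). The genes most like Jun over the 16 libraries, which share their genotypes and stages, were Repin1 (Pearson r 0.968), Hcn4 (0.925) and Zfp651 (0.92).

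Junb, a weaker activator that can oppose Jun, and Jund, the broadly expressed family member, both had low values in 2 KO libraries and showed no call. At ES Junb had 1780.3 and 379.5 normalised counts in the WT libraries against 1286.7 and 1000.6 in KO. At EB4 it had 1053.2 and 1202.0 in the WT libraries against 641.4 and 142.9 in KO, a change of -1.89 (SE 0.97, limma adjusted p = 0.274). The KO values lay under the WT values at EB4 and between them at ES. At EB5 Junb had 1031.3 and 539.2 in the WT libraries against 705.4 and 867.9 in KO, and at EB8 it had 327.6 and 523.0 in the WT libraries against 1190.1 and 114.0 in KO, so the groups overlapped at both stages.

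Jund had 1374.4 and 2430.1 normalised counts in WT ES against 1780.7 and 2157.7 in KO ES. At EB4 it had 3783.3 and 2145.7 in the WT libraries against 1836.5 and 668.7 in KO, and at EB8 5545.7 and 4954.0 in the WT libraries against 4820.6 and 1000.3 in KO. The KO values lay under the WT values at EB4 and EB8, with changes of -1.36 (SE 0.62, limma adjusted p = 0.215) and -1.25 (SE 0.62, 0.169). At EB5, where Jund had 4306.9 and 2984.7 in the WT libraries against 2739.1 and 3644.1 in KO, the groups overlapped. Like Jun, Jund was highest in WT EB8. Junb and Jund lie on chromosome 8, whose tested genes had a median deviation of 0.40 to 0.41 in the EB libraries of WT numbered 1, against -0.13 to -0.11 in those numbered 2 (log2), and its part in their levels was not tested.

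The lowest Junb and Jund values came from KO EB4 replicate 2 and KO EB8 replicate 2. These are the libraries in which GC-rich genes read low, and Junb (62.6% GC over its exons) and Jund (62.7%) stand at the 98.2 and 98.3 percentile of genes for GC content, with Jun at 55.5%. The coding stretches of 120 bases with the highest GC content of each gene are shown for this composition, read from NCBI37, with runs of at least 8 G or C in capitals.
Jun coding stretch, chr4:94717317-94717436, minus strand: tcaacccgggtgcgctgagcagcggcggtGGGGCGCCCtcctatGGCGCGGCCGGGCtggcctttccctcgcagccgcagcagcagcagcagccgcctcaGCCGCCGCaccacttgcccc
Junb coding stretch, chr8:87501795-87501914, minus strand: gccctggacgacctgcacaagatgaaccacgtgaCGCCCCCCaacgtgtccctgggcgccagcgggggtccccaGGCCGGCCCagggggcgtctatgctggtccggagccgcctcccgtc
Jund coding stretch, chr8:73223533-73223652, plus strand: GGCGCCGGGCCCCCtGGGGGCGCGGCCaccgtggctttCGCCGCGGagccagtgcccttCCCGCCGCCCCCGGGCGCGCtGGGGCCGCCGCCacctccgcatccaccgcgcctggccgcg
These stretches held 75.8% GC in Jun, 73.3% in Junb and 85.0% in Jund, with 30, 17 and 66 bases in such runs. Over the 16 libraries the level of Jund followed the slope of expression on GC content with r = 0.78, that of Junb with r = 0.76 and that of Jun with r = 0.41, a description over libraries that share genotypes and stages. The plot of Jun genes against this slope shows the 2 libraries apart from the others. With the GC trend removed the changes at EB4 and EB8 were -0.89 (limma adjusted p = 0.259) and -0.84 (0.204) for Jund, and -1.42 (0.291) and 0.24 (0.854) for Junb. Without both libraries they were -0.63 (limma adjusted p = 0.561) and -0.12 (0.878) for Jund, and -0.81 (0.693) and 1.52 (0.19) for Junb, whose direction at EB8 (-0.17, 0.925) turned in both.

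**Figure D3:**
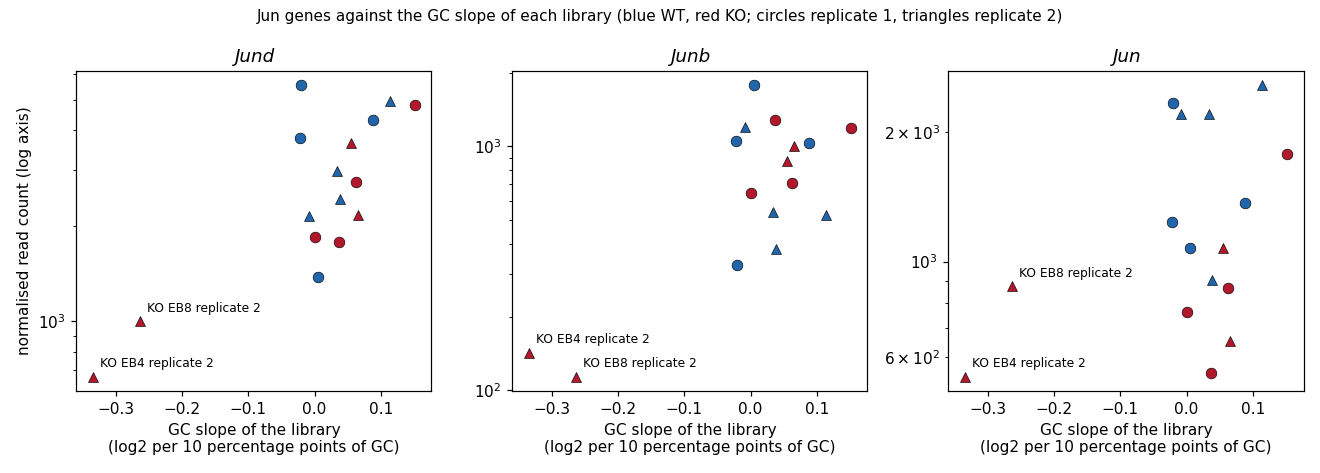
Each point is a library, placed by its slope of expression on GC content (x axis, log2 per 10 percentage points of GC) and by the normalised read count of Jund, Junb or Jun (y axis, log scale). KO EB4 replicate 2 and KO EB8 replicate 2 lie apart at slopes of -0.34 and -0.26, with the lowest Jund and Junb values, and the other 14 libraries lie between -0.02 and 0.15.

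Among the Fos genes no member was called between genotypes, and Fosl1 was read almost only in ES libraries. Fosl1 encodes Fra-1, which lacks the activation domain of Fos. It passed the filter of 10 counts on average only through its ES libraries, so it had to differ between ES and EB4, and its values are a description. It had 74.6 and 11.2 normalised counts in WT ES against 29.9 and 32.9 in KO ES. In the EB libraries it had 0 to 3.3 in WT and 2.1 to 7.7 in KO, or 0 to 7 reads. All 4 ES libraries lay above all 12 EB libraries. As reads, the ratio of ES to EB4 was 25.1 in WT (95% counting interval 8.33 to 124) and 6.45 in KO (3.13 to 15.5), and the interval covers counting error only. The WT ES libraries themselves held 82 and 14 reads, and the fitted step in WT of -3.88 (log2) ran from -5.20 without WT ES replicate 2 to -2.57 without WT ES replicate 1.

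Fosl2, which encodes Fra-2, had lower values in KO at EB4. It had 813.7 and 259.1 normalised counts in WT ES against 299.7 and 105.8 in KO ES. At EB4 it had 538.1 and 1902.3 in the WT libraries against 308.4 and 238.6 in KO, and the WT libraries differed more from each other than the nearest WT and KO libraries did. The change at EB4 was -1.90 (SE 0.64, limma adjusted p = 0.101), and DESeq2 on the recovered reads called it at -2.16 (adjusted p = 0.00798). At EB5 Fosl2 had 883.6 and 690.7 in the WT libraries against 496.8 and 419.9 in KO, a change of -0.77 (SE 0.64, limma adjusted p = 0.532), again with both KO libraries lower. At EB8, with 468.4 and 555.9 in the WT libraries against 724.8 and 387.7 in KO, the groups overlapped. Over the 16 libraries the genes most like Fosl2 were Pdgfb (r = 0.932), Ilk (0.925) and Map4k5 (0.897), and among the members Jun (0.7).

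Fos, the founding member of the family, had 113.8 and 58.2 normalised counts in WT ES against 107.9 and 121.5 in KO ES. At EB4 it had 108.5 and 554.4 in the WT libraries against 125.0 and 167.2 in KO. At EB5 it had 258.8 and 286.6 in the WT libraries against 154.5 and 302.5 in KO. The genotypes overlapped at these stages and at EB8, where Fos had 132.3 and 214.9 in the WT libraries against 546.5 and 198.1 in KO. The step from ES to EB4 in WT was 1.58 (SE 0.68, limma adjusted p = 0.13), with a 5.11-fold difference between the WT EB4 libraries, and DESeq2 called it at 1.95 (adjusted p = 0.0209). Fosb, its close relative known from stimulated neurons, had 8.0 to 145.8 normalised counts over the 16 libraries, with its lowest value in WT ES replicate 2 and its highest in WT EB4 replicate 2, and at ES its KO values (42.3 and 35.7) lay above those of WT (28.2 and 8.0). In the EB libraries the genotypes overlapped, with 9.9 and 145.8 for WT beside 25.7 and 29.4 for KO at EB4, 17.9 and 48.3 beside 16.1 and 23.3 at EB5, and 20.0 and 49.8 beside 41.1 and 28.8 at EB8. No comparison of Fosb passed the test.

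Egr1, a zinc finger factor induced by the ERK pathway, was not called in any comparison. ENSMUSG00000091428 overlaps it on the other strand. It had 1028.5 and 235.2 normalised counts in WT ES against 793.6 and 764.0 in KO ES, and 1078.4 and 1810.0 in WT EB4 against 642.5 and 680.2 in KO EB4. At EB5 it had 601.3 and 886.2 in the WT libraries against 326.1 and 389.8 in KO, so at EB4 and EB5 both KO libraries were lower. At EB8 it had 305.6 and 433.0 in the WT libraries against 925.3 and 469.8 in KO, with both KO libraries higher. The changes were -1.08 (SE 0.54, limma adjusted p = 0.264) at EB4, -1.03 (SE 0.54, 0.307) at EB5 and 0.86 (SE 0.54, 0.283) at EB8. The difference between the genotypes in the change from EB5 to EB8 was 1.89 (SE 0.77, limma adjusted p = 0.415).

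Atf3, a basic leucine zipper factor induced by stress, was highest at EB5 in WT. It had 334.0 and 230.4 normalised counts in WT ES against 159.4 and 83.6 in KO ES, a change of -1.26 (SE 0.55, limma adjusted p = 0.411) with both KO libraries lower. At EB4 it had 130.4 and 317.4 in the WT libraries against 198.6 and 136.5 in KO, and at EB5 556.1 and 831.3 in the WT libraries against 665.6 and 331.6 in KO. In both genotypes the EB5 libraries lay above those of EB4, by 1.74 in WT (SE 0.55, limma adjusted p = 0.123) and by 1.51 in KO (SE 0.55, 0.188). DESeq2 called the step in WT at 1.62 (adjusted p = 0.0478). With a replicate block within each genotype, limma called it in both (adjusted p = 0.0181 in WT and 0.0407 in KO). At EB8 Atf3 had 255.2 and 366.3 in the WT libraries against 790.2 and 312.1 in KO, and the groups overlapped. The genotypes' changes from ES to EB8 differed by 1.96 (SE 0.77, limma adjusted p = 0.141), and by the same value with that block (SE 0.51, 0.0304). The block was chosen after the data were seen, and with it 2156 in place of 1175 genes were called for this difference. It takes replicate numbers to recur across stages. The replicate difference in WT ES did not recur, with correlations across genes of -0.076 (EB4), -0.179 (EB5) and -0.048 (EB8).

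Klf6, a zinc finger factor of the Krüppel-like family with a known role in growth control, was higher in KO at EB8, and it was the member with the most calls. Klf6 (ENSMUSG00000000078) has 4 exon blocks on chromosome 13 (NCBI37, 5860735 to 5869639, plus strand) and, at 42.4% GC, is the member with the lowest GC content. At ES it had 4490.8 and 3233.0 normalised counts in the WT libraries against 2463.0 and 3210.5 in KO. At EB4 it had 4985.6 and 9088.8 in the WT libraries against 4704.5 and 6082.1 in KO. The KO libraries lay under the WT libraries at ES and overlapped them at EB4. At EB5 Klf6 had 3301.0 and 3587.6 in the WT libraries against 4476.0 and 4907.6 in KO, and at EB8 it had 1922.8 and 1804.2 in the WT libraries against 4355.3 and 3635.7 in KO. Both KO libraries were above both WT libraries at these later stages.

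The change of Klf6 at EB8 was 1.09 (SE 0.26, limma adjusted p = 0.0102), or 2.14-fold, and those at ES, EB4 and EB5 were -0.44, -0.33 and 0.45 (limma adjusted p = 0.571, 0.486 and 0.363). The call at EB8 was made in 12 of 14 alternatives and lost without WT EB8 replicate 2 (0.064) or KO EB8 replicate 1 (0.0744). Without both libraries of low GC-rich signal the change was 1.23 (limma adjusted p = 0.034).

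Over the stages in WT, Klf6 rose from ES to EB4 by 0.82 (SE 0.26, limma adjusted p = 0.0493), where 16.5% of all genes (8.98% higher, 7.57% lower) and 2 of 10 members were called, Klf6 (higher) and Fosl1 (lower), the latter a gene that had to differ since it passed the filter through its ES libraries. It then had a change of -0.97 to EB5 (SE 0.26, limma adjusted p = 0.0644). At this step limma called 0 members and 3.73% of all genes, with 2 members, Atf3 and Klf6, at an unadjusted p under 0.05. There edgeR called 0 members and 525 of all 16124 genes, whereas DESeq2 called both members and 1089 genes. From EB5 to EB8 Klf6 fell by 0.89 (SE 0.26, limma adjusted p = 0.0491), as the only member called beside 10.4% of all genes (4.62% lower). The rise to EB4 held in 7 of 14 alternatives (adjusted p 0.0131 to 0.343), and the fall to EB8 in 8 of 14 (0.0173 to 0.21), where leaving out any of the 4 WT libraries of EB5 and EB8 (0.137 to 0.21), applying no filter (0.0768) or blocking on exchanged replicate numbers (0.0532) ended the call. The rise to EB4 was lost with no filter (limma adjusted p = 0.0791), after upper-quartile rescaling (0.0511), with the GC trend removed (0.0627) and with the exchanged block (0.0519). It was also lost without WT ES replicate 2 or WT EB4 replicate 2, and leaving out each library gave 0.39 to 1.25. A fit of the compared groups lost it too (limma adjusted p = 0.255). In that fit limma called 0 of all 16124 genes, so this loss says nothing particular to Klf6.

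In KO the same steps of Klf6 were 0.93 (SE 0.26, limma adjusted p = 0.0707), -0.19 (0.79) and -0.24 (0.791). At these 3 steps limma called 0 members in KO, beside 3.5%, 2.51% and 0.738% of all genes, and 2 (Fosl1 and Klf6), 2 (Jund and Atf3) and 0 members had an unadjusted p under 0.05. Of the count tests, edgeR called 0 members at each step. DESeq2 called 1, Klf6 from ES to EB4, a step at which it called 1690 of all 16124 genes. Over the whole course, the change of Klf6 from ES to EB8 was higher in KO than in WT by 1.53 (SE 0.37, limma adjusted p = 0.028), a comparison added after the values were seen, at which 7.29% of all genes (3.85% higher) and 1 of 10 members were called. It held in 13 of 19 alternatives, with adjusted p-values from 0.0025 to 0.108, and was lost without WT ES replicate 1 (0.0536), WT EB8 replicate 1 (0.0592), WT EB8 replicate 2 (0.0882), KO ES replicate 1 (0.108), KO EB8 replicate 1 (0.0897) or both libraries of low GC-rich signal (0.0589). For the single steps limma called no difference between genotypes in any member, beside 0%, 0% and 0.781% of all genes, with 1 (Egr1), 0 and 1 (Egr1) members at an unadjusted p under 0.05, and edgeR and DESeq2 called 0 members. Genes most like Klf6 over the 16 libraries were Myh9 (r = 0.907), Fam83f (0.894) and Rras2 (0.874).

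The members were also counted by whether the libraries of 2 groups overlapped, beside the share of all genes that did not. Between genotypes, KO lay wholly above WT for 1 member at ES (19% of all genes), 0 at EB4 (25.3%), 2 at EB5 (26.7%) and 2 at EB8 (30.4%). It lay wholly under WT for 3 members at ES (20.7%), 5 at EB4 (26.6%), 3 at EB5 (28.1%) and 2 at EB8 (33.5%). The 5 at EB4 were Fosl2, Jun, Junb, Jund and Egr1.

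Between stages in WT, the later stage lay above the earlier for 3 members from ES to EB4 (26.5% of all genes), 1 from EB4 to EB5 (21.8%) and 2 from EB5 to EB8 (28.6%), and under it for 1 (27.6%), 3 (20%) and 6 (26.1%). The 6 that were lower at EB8 in WT were Fos, Fosl2, Junb, Egr1, Atf3 and Klf6, while Jun and Jund were higher. In KO it lay above for 2 (28.1%), 5 (25.9%) and 2 (22.3%), and under for 4 (28.2%), 2 (24.2%) and 2 (23.5%). The 5 that were higher at EB5 in KO were Fosl2, Jun, Junb, Jund and Atf3.

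**Figure D4:**
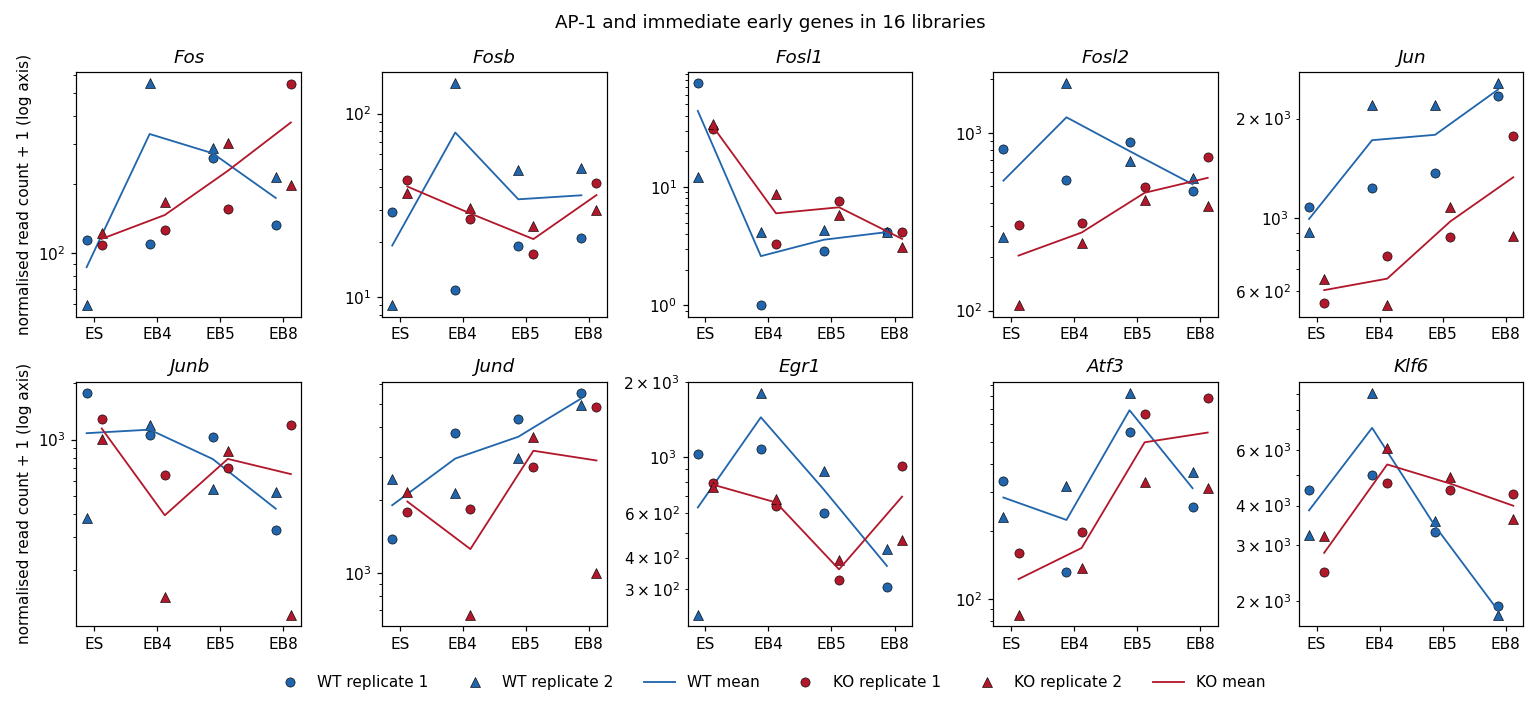
Each panel gives the normalised read count plus 1 of a member on a log axis at ES, EB4, EB5 and EB8, with WT in blue, KO in red, replicate 1 as circles, replicate 2 as triangles and lines through the group means. The KO points of Jun lie under the WT points at each stage, and those of Klf6 pass from under WT at ES to above WT at EB5 and EB8.

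In each of the 8 groups the median member differed between the libraries of the group by more than the median gene. The difference was largest in 3 groups, in which nearly all members went in the same direction. The median difference between the libraries of a group, taken without its sign, was 1.30 (log2) over the members in WT ES against 0.44 over all genes tested, 1.07 against 0.35 in WT EB4, and 0.99 against 0.32 in KO EB8. In the other 5 groups it was 0.57 against 0.33 (WT EB5), 0.37 against 0.30 (WT EB8), 0.26 against 0.25 (KO ES), 0.46 against 0.31 (KO EB4) and 0.35 against 0.28 (KO EB5). Of the 10 members, 9 were higher in replicate 1 of WT ES, 9 in replicate 2 of WT EB4 and 10 in replicate 1 of KO EB8, whereas 48.7%, 50.4% and 52.1% of all genes tested were higher in replicate 2. Of the 25 tested genes of a list of other immediate early genes, 21 were higher in replicate 1 of WT ES, 12 in replicate 1 of WT EB4 and 21 in replicate 1 of KO EB8. The plot of differences between replicates shows each member.

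**Figure D5:**
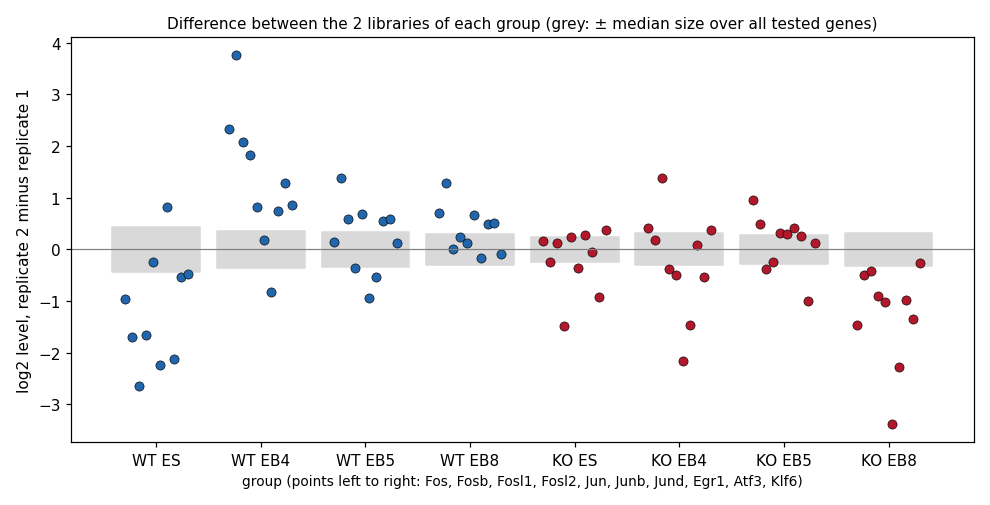
Points are the log2 differences of replicate 2 minus replicate 1 for the 10 members in each group, in the order named under the axis, and the grey band is ± the median difference, without sign, over all genes tested. In WT ES 9 members lie below 0, in WT EB4 9 lie above, and in KO EB8 all 10 lie below.

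The other genes of the pathway were taken from lists drawn up by function. Of 25 tested immediate early genes beside the members, limma called none between genotypes at ES and EB5 and 1 at EB4, Klf4, also among the 6 pluripotency markers, higher in KO by 2.18 (SE 0.57, adjusted p = 0.0447). The median change of KO over WT in these 25 genes was -0.04 (log2) at ES, -0.55 at EB4, 0.02 at EB5 and 0.25 at EB8. Over all genes tested it was 0.00, 0.00, -0.01 and -0.03. At EB8 limma called 2 of the 25 higher and 2 lower. Of all genes tested, limma called 0% at ES, 6.12% at EB4, 4.34% at EB5 and 22.9% at EB8. Klf2, another Krüppel-like factor of ES cells, was higher by 3.50 (SE 0.70, limma adjusted p = 0.00403), and Csrnp1 by 1.88 (SE 0.29, 0.000828), whereas Nr4a2, a nuclear receptor of neurons (-2.23, SE 0.64, 0.0247), and Ier5 (-1.17, SE 0.28, 0.0111) were lower. In WT, Tiparp and Ier5 rose and Klf4 fell from ES to EB4, Arc, Zfp36 and Ier5 fell to EB5, and Klf2, Nr4a1 and Csrnp1 fell while Ier5 rose to EB8. In KO, Ier5 and Tiparp rose and Ier2 fell from ES to EB4, and none of the 25 was called at the later steps. Of all genes tested, 16.5%, 3.73% and 10.4% were called at the steps in WT, and 3.5%, 2.51% and 0.738% in KO.

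Of 14 tested basic leucine zipper partners, none was called between genotypes before EB8, where Nfe2l2, the regulator of the oxidative stress response, was higher in KO by 0.74 (SE 0.17, limma adjusted p = 0.0102) and Atf1 by 0.59 (SE 0.17, 0.0241). These were 2 of 14 at EB8, beside 22.9% of all genes tested. Creb1 rose from ES to EB4 in WT by 1.04 (SE 0.31, limma adjusted p = 0.0388), a step at which 16.5% of all genes were called.

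Of 18 kinases and serum response factors upstream of these genes, all tested, limma called 1 higher and 1 lower in KO at EB4. At EB5 it called 1 higher, and at EB8 2 higher and 2 lower. Over all genes tested, 6.12%, 4.34% and 22.9% were called at these stages. Rps6ka1, the ERK-activated kinase RSK1, was higher in KO at EB4 (0.64), EB5 (0.79) and EB8 (1.27, each SE 0.14, limma adjusted p = 0.0241, 0.0135 and 0.000129). Its counts at EB8 were 1296.9 and 1340.4 in the WT libraries against 3232.7 and 3116.9 in KO. Mapk3, which encodes ERK1, was lower in KO at EB4 (-0.79, SE 0.20, limma adjusted p = 0.0396). At EB8 the p38 kinase gene Mapk14 was higher by 0.69 (SE 0.13, limma adjusted p = 0.0031), and among genes of Jun N-terminal kinases Mapk8 (-0.69, SE 0.16, 0.0101) and the neuronal Mapk10 (-4.23, SE 0.73, 0.00174) were lower, Mapk10 with 152.3 and 283.8 counts in WT against 3.2 and 28.8 in KO. Srf, Elk1 and the other serum response factors of the list were not called between genotypes at any stage.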

How the data were processed

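RNA from 16 libraries, 2 for each genotype and stage, was prepared with a poly-A kit that does not keep the strand and read as single ends of 54 bases. Per the submitters' processing notes, CASAVA 1.7 and 1.8, TopHat2 2.0.10, HTSeq 0.5.4p3 and DESeq2 1.0.19 were used with build mm9. The annotation release is not given in the sources used here. The deposited values are a signal, gene counts that the authors divided by size factors. All values were whole multiples of a library's step (0.715 to 1.276, 100.0% within 0.01), which gave reads back for the count tests.

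Genes with a mean of at least 10 (16124) were tested on log2(value + 1) by limma 3.58.1 in R 4.3.3, over all 8 groups (8 residual and 4.27 prior degrees of freedom), with Benjamini-Hochberg adjustment and a threshold of 0.05. Fold changes on this scale understate those of low genes. The study used DESeq2, and here edgeR 4.0.16 and DESeq2 1.42.0 on the recovered reads were alternatives, since the files hold normalised values. The other alternatives were a pseudocount of 5, no filter, upper-quartile rescaling, only the groups compared, a replicate block and each library left out. Chosen after seeing the data were removal of the GC trend (lowess, span 0.3), leaving out both libraries of low GC-rich signal, a block with exchanged KO numbers, a block within each genotype for changes between stages, and the comparison from ES to EB8. In data simulated for KO against WT at EB8 over 16116 genes, limma recovered 100.0% of 4-fold and 65.0% of 2-fold changes, with 7 false calls. The simulation gave every gene the same spread between libraries and changed only genes with many reads. These shares therefore do not carry over to members whose libraries differed more, and an uncalled member is not shown to be unchanged.

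Members and gene lists were chosen with earlier results of these data known. By rule the 10 members are named, with the values of each library and the changes that the results turn on, from each list the called genes with the largest change (at most 3 in each direction), and for likeness the 3 genes of highest r. Coordinates are from GENCODE on NCBI37, which held 27603 of 27807 identifiers. Without strand, reads of Jun and BC042782, Egr1 and ENSMUSG00000091428, Fosl1 and Ccdc85b, and Jund and ENSMUSG00000080058 cannot be told apart where they overlap.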

Additional observations from a re-analysis of the deposited data

Results flagged for a closer look

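The difference between genotypes in the change of Klf6 from ES to EB8 was 1.53 (log2, limma adjusted p = 0.028), a comparison added after the values were seen. Klf6 also differed in direction between stages in every library, with both KO libraries under WT at ES (-0.44) and above WT at EB5 (0.45), 0.88 apart, and this difference was not tested. Egr1 had both KO libraries under WT at EB4 (-1.08) and above WT at EB8 (0.86), 1.93 apart, and this difference was not tested either. Limma called Egr1 in no comparison. Of all genes tested, KO lay wholly under WT for 20.7% at ES and 26.6% at EB4. It lay wholly above WT for 26.7% at EB5 and 30.4% at EB8. The share of genes with such a turn in direction was not counted.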

How the results depend on the processing

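The count of members called moved under these settings. For KO against WT at EB4 it went from 1 to 0 with no filter, with only the groups compared, and without both libraries of low GC-rich signal, and to 2 with DESeq2. With only the groups compared limma called 0 of all 16124 genes at EB4, against 986 in the main fit. That loss therefore says nothing particular to Jun. Without both libraries of low GC-rich signal KO EB4 held 1 library, so the count there does not single out Jun either. At EB8 the count of members called went from 1 to 2 with the GC trend removed and with the exchanged replicate block. For WT from ES to EB4 it went from 2 to 1 with no filter, upper-quartile rescaling, the GC trend removed and the exchanged block. It went to 0 with only the groups compared, where 0 of all 16124 genes were called. For WT from EB4 to EB5 the count of members went from 0 to 1 with the GC trend removed and the exchanged block. It went to 2 with DESeq2, which called 1089 of all genes in place of 601. For WT from EB5 to EB8 it went from 1 to 0 with no filter and the exchanged block. For KO from ES to EB4 it went from 0 to 1 with DESeq2, which called 1690 of all genes in place of 564. For the difference from ES to EB8 it went from 1 to 0 without both libraries and to 2 with the exchanged block. Leaving out each library gave 0 to 1 at EB4, 0 to 2 at EB8, 1 to 3, 0 to 1 and 0 to 0 for the 3 steps in WT, and 0 to 1 for the difference from ES to EB8. The cause was not tested.

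No called value turned its direction. Among uncalled changes of KO over WT, Fosl1 at ES was -0.43 with edgeR, Jund at EB5 was 0.011 with the GC trend removed, Fosl1 at EB8 was 0.001 without both libraries, and Junb at EB8 was 0.63 with edgeR, 0.62 with DESeq2, 0.24 with the GC trend removed and 1.52 without both libraries. Leaving out each library gave, at ES, -1.23 to 1.41 for Fosl1, -0.65 to 1.58 for Junb, -0.31 to 0.51 for Jund and -0.40 to 1.72 for Egr1. At EB4 it gave -1.93 to 0.41 for Fos, -2.37 to 1.39 for Fosb, -0.94 to 0.33 for Atf3 and -0.77 to 0.10 for Klf6. At EB5 it gave -0.81 to 0.15 for Fos, -1.28 to 0.11 for Fosb, -0.40 to 0.54 for Junb and -0.45 to 0.082 for Jund. At EB8 it gave -0.52 to 0.76 for Fosb, -0.41 to 0.001 for Fosl1, -0.40 to 0.51 for Fosl2 and -1.85 to 1.52 for Junb. Without KO EB8 replicate 1, Jun (-1.48, limma adjusted p = 0.0249) and Jund (-2.39, 0.0152) were called at EB8, but KO EB8 was then the 1 library of low GC-rich signal, assumed to vary like the other groups, and without both such libraries the changes were -0.46 and -0.12.

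No label says what a replicate number marks. The median deviation (log2) of tested genes on chromosome X was 0.35 to 0.54 in KO libraries numbered 2. In KO libraries numbered 1 it was -0.24 to -0.16. In WT it was 0.47 in ES replicate 2, -0.23 in ES replicate 1 and -0.25 to -0.16 in EB libraries. For chromosome 8 it was -0.15 and -0.16 in WT ES libraries, against 0.40 to 0.41 in WT EB libraries numbered 1. Whether WT ES and EB libraries share lines was not tested, so their step may hold a difference between lines. The correlation across genes of same-numbered deviations between KO and WT was 0.335 at ES, -0.0575 at EB4, -0.209 at EB5 and -0.133 at EB8, so the numbers did not pair the genotypes. Within a genotype they recurred across stages, at 0.605 and 0.57 for the later steps in WT and 0.389, 0.422 and 0.233 in KO, but at -0.076 from ES to EB4 in WT. With a replicate block within each genotype, the count of members called went from 0 to 1 (Atf3) from EB4 to EB5 in WT and in KO, and from 1 to 2 (Atf3 and Klf6) for the difference from ES to EB8, and did not change in the other changes between stages. Of all genes, 917 in place of 601 were then called for WT from EB4 to EB5, 1291 in place of 564, 724 in place of 405 and 299 in place of 119 for the steps in KO, and 8 in place of 0, 227 in place of 126 and 2156 in place of 1175 for the differences from ES to EB4, EB5 to EB8 and ES to EB8. DESeq2 called 476 genes in place of 0 at ES, 2077 in place of 986 at EB4 and 1719 in place of 700 at EB5 between genotypes. With the replicate block the count of members called was 1 at EB4 and 1 at EB8 and changed in no comparison, with limma adjusted p-values of 0.0424 for Jun and 0.00945 for Klf6. Upper-quartile rescaling moved the median of all genes at EB8 from -0.03 to 0.11, and that of the difference from ES to EB8 from -0.04 to 0.16. With 2 libraries per group and Fosl1 at 0 to 7 reads in EB libraries, changes of this gene after ES were not measurable at this depth.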

Other observations

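Of 20 genes known as AP-1 targets, 14 were tested, and limma called 1 between genotypes at EB4, beside 6.12% of all genes, and 6 at EB8, beside 22.9%. Spp1, which encodes the matrix protein osteopontin, was higher in KO at EB4 (2.33, SE 0.53, adjusted p = 0.0276) and at EB8 (3.16, SE 0.53, limma adjusted p = 0.00137), where it had 1281.1 and 1099.0 normalised counts in WT against 6906.5 and 16350.4 in KO. Mmp9, a matrix protease, and Timp1, an inhibitor of such proteases, were higher at EB8 by 2.51 (SE 0.58, limma adjusted p = 0.00908) and 2.34 (SE 0.68, 0.0265), as was Hmox1. Ccnd1, which encodes cyclin D1, was lower (-2.82, SE 0.47, limma adjusted p = 0.00134), with 7111.4 and 5281.2 counts in WT against 561.3 and 1346.5 in KO. Vim, an intermediate filament gene of neural progenitors, was lower too (-2.27, SE 0.26, limma adjusted p = 0.000176). The median over the list was 0.33 at EB8, against -0.03 over all genes tested.

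Of 8 heat shock genes, beside the same shares and 4.34% of all genes at EB5, 2 were higher in KO at EB4 (Hsph1 and Hsp90aa1), 2 at EB5 and 2 at EB8 (Hspb1 and Hsp90aa1 at both). Hspb1, a small chaperone gene, was higher at EB8 by 2.86 (SE 0.31, limma adjusted p = 0.000127), with 281.4 and 288.0 counts in WT against 2561.7 and 1686.3 in KO. Of 10 genes of the integrated stress response, limma called 1 at EB4, 0 at EB5 and 1 at EB8, beside the same shares of all genes. Sesn2 was higher in KO at EB4 by 1.04 (SE 0.26, limma adjusted p = 0.0383) and Asns, which encodes asparagine synthetase, at EB8 by 1.67 (SE 0.35, 0.00564). At ES limma called 0 of all 16124 genes tested (DESeq2 called 476), so its count of 0 for these lists says nothing particular to them.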
